A study of Mus musculus with 36 samples.

Results

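The regions described here are the broad peaks of an ATAC-seq study of mouse dendritic cells: the 39 intervals of at least 5000 bases on chromosomes 1 to 19, among 119751 intervals in the deposited peak list. ATAC-seq reads out open chromatin through a transposase that inserts sequencing adapters where DNA is accessible. The members were chosen by width alone, and all 39 passed the filter on low counts. Their median width was 6183 bases, against 452 bases over the 116281 tested autosomal peaks, and 4 exceeded 10 kb. The narrowest members measured 5052, 5103 and 5113 bases, and the widest peaks left out measured 4952, 4973 (Klf6) and 4974 (Klf13) bases. Widths and counts come from the same libraries, and how the peaks of single libraries were joined is not given in the sources used here. A change in counts is therefore not independent of a width that the same change can extend.

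The cells were bone marrow-derived dendritic cells, antigen-presenting cells grown in GM-CSF (15 ng/mL) from the marrow of female C57BL/6J mice 6 to 8 weeks old. Ligands of innate immune receptors were added for 6 h, alone or combined. Each of 18 groups has 2 libraries, 36 in all. Cells without a ligand form the group Ctrl. Letters name the ligands: Z stands for depleted zymosan, S for SeV, cG for 3',3'-cGAMP, L for LPS, P for PAM and H for HMW. Beside each ligand alone there were 8 pairs (ZS, ZcG, ScG, PS, PcG, PL, PH and LH) and 3 triplets (ZScG, PScG and PLH). All groups share the strain, the culture and the time, and no group carries a genetic change. Nothing in the labels says that the 2 libraries of a group came from separate animals or cultures, so p-values measure only the spread between these libraries.

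Dendritic cells answer microbial ligands with waves of transcription. LPS acts through TLR4 and cyclic dinucleotides act through STING, and both routes can lead to type I interferon, which in turn induces antiviral genes such as Rsad2, Ifit2 and the Mx genes. NF-kappaB drives inflammatory genes such as Tnf in parallel. At strongly induced genes, open chromatin can spread from a promoter or enhancer over the gene body and past its end, and such stretches appear in ATAC-seq as wide peaks.

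Sequences of 1 microRNA and 3 promoters are shown first, because they belong to loci described below. The microRNA gene Mir155, whose product is a regulator of inflammatory responses in myeloid cells, sits between a pair of broad peaks on chromosome 16. The promoters are those of Cxcl10 and Tnf, which broad peaks cover, and of Rsad2, whose broad peak stops short of the start. All come from RefSeq on GRCm38.p6, which is the mm10 assembly named in the submitters' processing notes. Each promoter runs from 250 bases before to 50 bases after the annotated start, with positions counted from 0 at the start. In the microRNA, capitals mark the seed (bases 2 to 8). In the promoters, capitals mark matches on either strand to a pair of GAAA separated by 2 bases of any kind, a core of the interferon-stimulated response element, and to GGG and CC separated by 5 bases of any kind, a loose core of NF-kappaB sites.
mmu-miR-155-5p: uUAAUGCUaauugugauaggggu
Cxcl10, minus strand: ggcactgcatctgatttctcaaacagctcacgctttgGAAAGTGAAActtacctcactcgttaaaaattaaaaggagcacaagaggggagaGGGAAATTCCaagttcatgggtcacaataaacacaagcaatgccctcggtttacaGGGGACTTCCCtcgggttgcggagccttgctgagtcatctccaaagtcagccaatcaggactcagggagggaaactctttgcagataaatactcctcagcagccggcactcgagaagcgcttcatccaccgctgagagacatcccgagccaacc
Tnf, minus strand: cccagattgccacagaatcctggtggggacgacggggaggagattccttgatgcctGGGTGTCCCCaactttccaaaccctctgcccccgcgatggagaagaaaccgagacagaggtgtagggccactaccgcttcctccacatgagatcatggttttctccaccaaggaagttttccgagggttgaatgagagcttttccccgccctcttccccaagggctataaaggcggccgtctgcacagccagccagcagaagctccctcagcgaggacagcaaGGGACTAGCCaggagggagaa
Rsad2, minus strand: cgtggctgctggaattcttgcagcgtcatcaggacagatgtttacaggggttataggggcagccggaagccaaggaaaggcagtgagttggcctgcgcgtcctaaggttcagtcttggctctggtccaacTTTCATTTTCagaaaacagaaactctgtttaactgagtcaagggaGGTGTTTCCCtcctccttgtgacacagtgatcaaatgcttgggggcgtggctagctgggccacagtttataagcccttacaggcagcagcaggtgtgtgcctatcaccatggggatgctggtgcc

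The Cxcl10 promoter lies at chr5:92348840-92349139, the Tnf promoter at chr17:35201958-35202257 and the Rsad2 promoter at chr12:26456403-26456702. The GAAA pair began at position -213 in Cxcl10 and at -120, on the other strand, in Rsad2. The GGG and CC motif began at -159, -104 and -103 in Cxcl10, the last 2 overlapping, at -194 and 29 in Tnf and at -75 in Rsad2. The promoters of Gadd45b and Ifit2, also searched but not printed, held 0 GAAA pairs. That of Ifit2 held 1 GGG and CC match, at -247, and that of Gadd45b held 0. Over the 25 promoters of 17 genes whose start lay inside a broad peak, 4.0% held the GAAA pair and 48.0% held the GGG and CC motif. The 4.0% is 1 promoter, that of Cxcl10. Over the 31396 promoters of the same length on chromosomes 1 to 19, 3.46% and 51.3% did, so the shares were similar in both sets. The mature miR-155-5p sequence lies at chr16:84714143-84714165 on the plus strand.

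The members fell into 3 kinds of place, sorted by annotation after their values were seen. At the first bases of the assembled chromosomes, before 3.3 Mb, lay 7: a 38524-base interval on chromosome 9, 1 on chromosome 10, 4 on chromosome 11 over Pisd-ps1 and Sfi1, and 1 on chromosome 17 over Pisd-ps2. A further 6 lay at RNA repeat loci: 5 in a cluster on chromosome 6 whose first interval overlaps Rn4.5s, and 1 over Rn18s-rs5, an 18S ribosomal RNA copy, on chromosome 17. Reads from near-identical copies cannot be assigned with certainty at such loci, so their counts are uncertain. The other 26 lay elsewhere, and 22 of them overlapped a protein-coding gene. The gene table gives gene extents without exons, introns or UTRs, and strand was known for 20 of the 25 overlaps between these 26 peaks and coding genes.

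Broad peaks covered gene ends more often, and gene starts less often, than peaks of 2 to 5 kb. An annotated start of a protein-coding gene lay in 11 of 39 broad peaks (28.2%) and in 60.3% of the 1843 peaks of 2 to 5 kb, while an annotated 3' end lay in 28.2% and 4.88%. Among all tested autosomal peaks the shares were 7.95% and 0.588%. Counting genes of every kind, 15 of the 39 covered a start. These shares describe the intervals, and wider intervals cover more positions by their width alone.

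**Figure D1:**
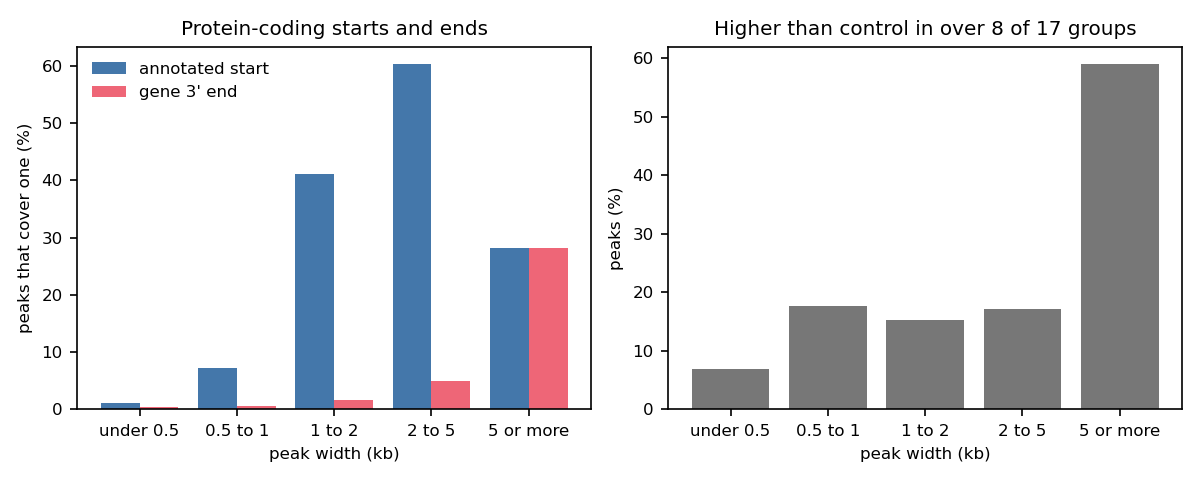
Left, the percentage of tested autosomal peaks in 5 width classes (kb) that cover an annotated start (blue) or 3' end (red) of a protein-coding gene. Right, the percentage called higher than control in over 8 of the 17 stimulation groups. Starts are covered by 60.3% of the 2 to 5 kb peaks and 28.2% of those of 5 kb or more, 3' ends by 4.88% and 28.2%, and 59.0% of the widest class were higher in over 8 groups.

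Several members spanned whole genes. The interval chr5:92344162-92349984 held all of Cxcl10, a chemokine that draws activated T cells, and ran 2476 bases past its 3' end into the overlapping gene Art3. The interval chr17:35197130-35203029 held all of Tnf, the inflammatory cytokine, with 2237 bases beyond its 3' end, and ended 136 bases before Lta. Gadd45b, a stress response gene, was covered whole by chr10:80928303-80934389, and Ccrl2, an atypical chemokine receptor, by chr9:111054761-111060048. The Rsad2 interval, chr12:26438731-26453446, was 14716 bases wide. It covered 78.07% of the gene, began 3006 bases downstream of its start and ran 4012 bases past its end. Acod1, which makes itaconate in activated myeloid cells, was covered over 89.31% of its length by the 13361 bases of chr14:103048034-103061394, which reached 4821 bases beyond it.

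Chromatin data for the whole study set limits on these comparisons. Counts per library ranged from 19097027 to 39977088, of which 1 peak over the mitochondrial genome held 44.1% to 63.1%, and 8181254 to 21985891 counts remained outside it. The mitochondrial share averaged 61.0% in Ctrl and 58.3% to 63.0% in Z, ScG, ZcG and ZScG, against 44.4% to 54.5% in the 13 other stimulations. For those 13 the share and the stimulation cannot be told apart in a comparison with Ctrl, while the comparisons among P, L, S, cG, PS and PcG stay on 1 side of that split. Summed levels at the start sites of marker genes ranged over the group means as follows: 2 of 10 T cell markers had a peak there (7.32 to 13.7 CPM, as defined in the next paragraph), as did 2 of 10 B cell markers (2.12 to 6.62), 2 of 6 NK cell markers (12.2 to 20), 1 of 6 mast cell or basophil markers (0.183 to 1.82), 2 of 10 neutrophil markers (20.2 to 47.8) and none of 6 erythroid markers. Of 10 dendritic cell markers 5 had one (23.2 to 36.4), as did 7 of 10 macrophage or monocyte markers (69.8 to 92.9), and their part in the results was not tested.

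Levels are given below as counts-per-million values (CPM) outside the mitochondrial peak after TMM scaling, with both libraries of a group in order of replicate number. A peak is called changed at a Benjamini-Hochberg adjusted p under 0.05 in edgeR's quasi-likelihood test, adjusted over all 119464 tested peaks. Changes are log2 fold changes with the standard error (SE) of the fit.

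Most broad peaks outside the named RNA repeat loci and chromosome starts opened further after stimulation, and 8 did so in all 17 stimulations. Of the 39, 23 (59.0%) were higher than Ctrl in over 8 of the 17 stimulations, against 11.1% of all tested peaks, and 8 (20.5%) were higher in all 17, against 1.03%. Those 8 were the intervals at Ccrl2, Gadd45b, Rsad2, Acod1 and Tnf, the pair around Mir155, and the interval at Gm51701 on chromosome 9. Of the 26 members outside the named RNA repeat loci and chromosome starts, 21 (80.8%) were higher in over 8 stimulations. A single member of the 26, at Marcks, was lower in over 8. All 17 comparisons share the same 2 Ctrl libraries. Among peaks of 2 to 5 kb, 17.1% were higher in over 8 stimulations. Median levels were 69.0 CPM in broad peaks, 42.6 in those of 2 to 5 kb and 2.16 over all tested autosomal peaks. A change is easier to call at a higher level, so these shares do not rest on equal counts.

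**Figure D2:**
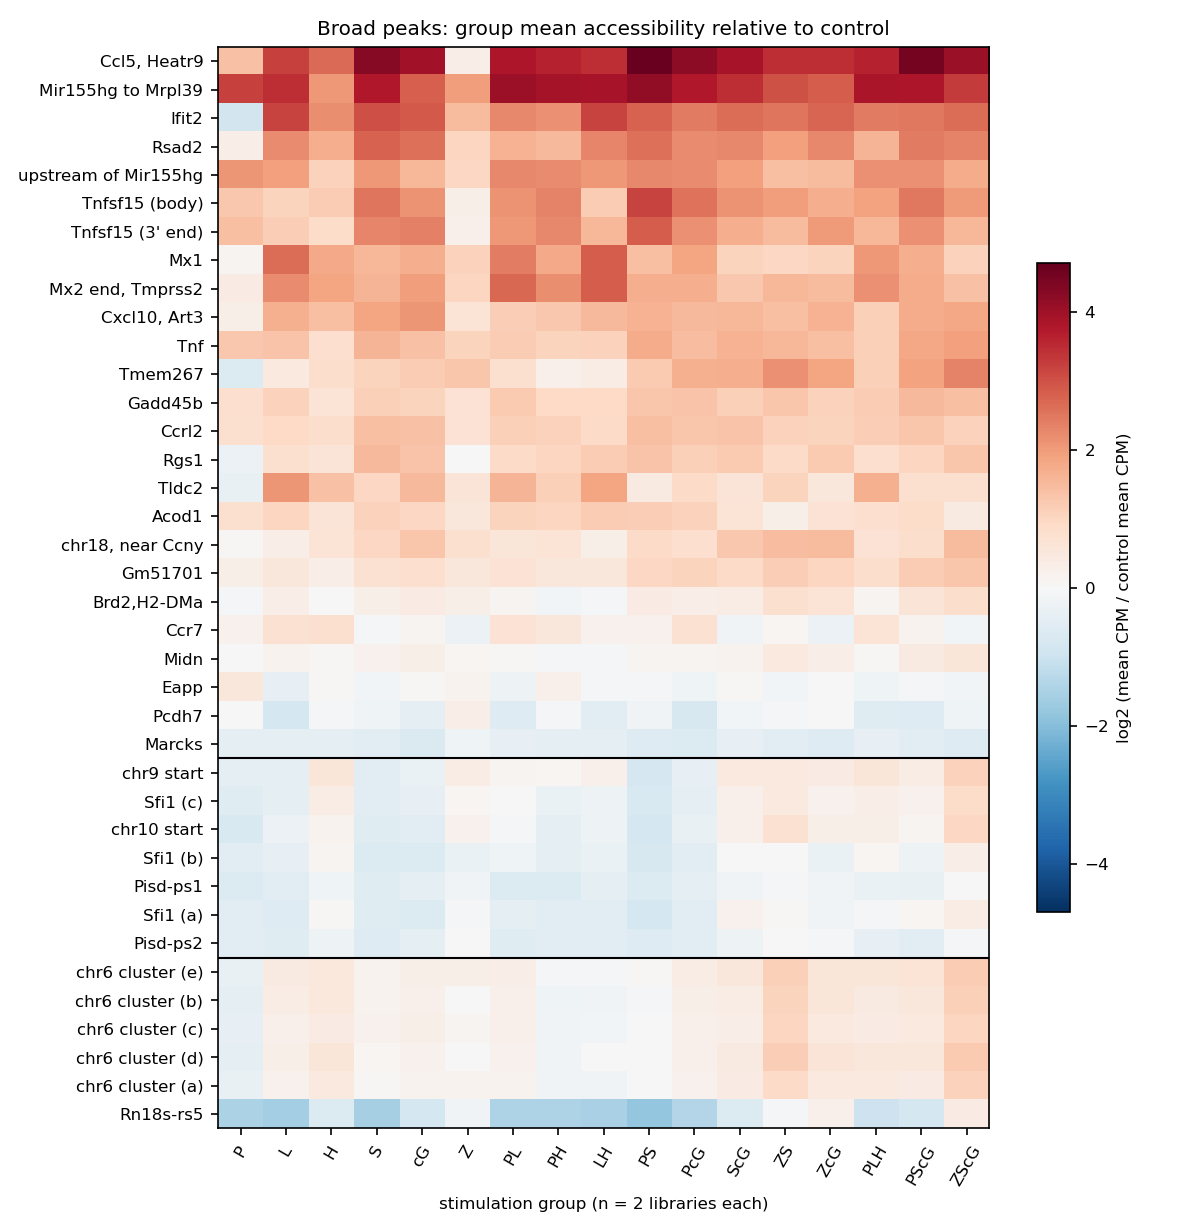
Log2 ratio of each group's mean CPM to the Ctrl mean for 38 of the 39 broad peaks (rows) in the 17 stimulation groups (columns, 2 libraries each), red for higher and blue for lower. The rows are split by lines into 25 loci elsewhere, 7 chromosome starts and 6 RNA repeat loci, and sorted within each by the median over stimulations. The Ccl5 row reaches 4.64 in PS, and the Rn18s-rs5 row falls to -1.82 there.

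Single ligands differed in how many broad peaks they raised. S raised 21 of 39 (53.8%) against 14.1% of all tested peaks and lowered 9 (23.1%) against 13.8%. L raised 23 (59.0%) against 11.2% and lowered 8 (20.5%) against 11.1%, and cG raised 23 (59.0%) against 11.6% and lowered 7 (17.9%) against 11.6%. H raised 27 (69.2%) against 5.21% and lowered 3 (7.69%) against 5.46%. P raised 12 (30.8%) against 11.1% and lowered 14 (35.9%) against 9.45%, but without P replicate 1 it raised 12 and lowered 9. The lower calls in H were at most 1 without H replicate 1 or either Ctrl library. Z raised 17 (43.6%) against 4.16% and lowered 0 against 1.75%. At an unadjusted p under 0.05 edgeR lowered 2 in Z, and DESeq2 lowered 0 after adjustment. Most lower calls of the other 5 ligands lay at chromosome starts and RNA repeats. Among the 26 members elsewhere, P lowered 3, L 3, cG 2, S 1 and H 1.

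Combinations gave counts in the same range or above. The pairs raised 17 (LH, 11.3% of all tested peaks), 19 (PH, 13.6%), 21 (PL, 13.8%), 21 (PS, 17.3%), 24 (PcG, 16.8%), 25 (ScG, 14.4%), 27 (ZcG, 11.4%) and 29 (ZS, 14.4%). They lowered 7 (LH, 10.5%), 6 (PH, 12.8%), 6 (PL, 13.5%), 9 (PS, 16.2%), 8 (PcG, 16.2%), 3 (ScG, 13.3%), 2 (ZcG, 10.2%) and 1 (ZS, 14.0%). The triplets raised 26 (PLH, 14.9%), 27 (PScG, 19%) and 32 (ZScG, 16.2%), and lowered 5 (14.7%), 5 (18%) and 1 (16.1%) in that order. Lower calls became 1 in ScG without Ctrl replicate 1, and 1 in ZcG without either Ctrl or either ZcG library. ZScG thus raised most of the members, including 5 of the 7 at chromosome starts and 5 of the 6 at RNA repeats.

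**Figure D3:**
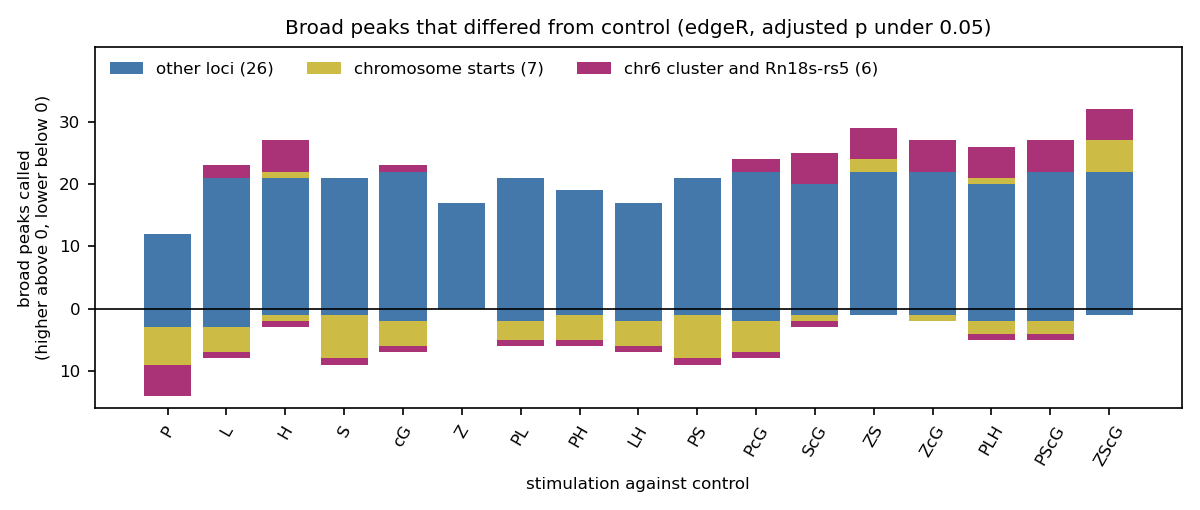
Number of the 39 broad peaks called higher (above 0) or lower (below 0) than Ctrl in each of the 17 stimulations, split by place: other loci (blue), chromosome starts (yellow) and the chromosome 6 cluster with Rn18s-rs5 (purple). Lower calls number 14 in P and 9 in S and PS, and higher calls reach 32 in ZScG.

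The direction split depended on the scaling. Scaling by total counts outside the mitochondrial peak gave median log2 changes of all peaks of up to 0.45 (L), against 0.03 under TMM. The higher and lower calls became 20 and 2 for P, 27 and 2 for S, 28 and 2 for L, 29 and 4 for cG, 23 and 2 for LH, and 28 and 2 for PcG. They became 23 and 2 for PH, 30 and 5 for PS, 33 and 1 for PLH, and 33 and 1 for PScG. Calls over all tested peaks, in either direction, went from 24529 to 26607 in P, 33339 to 38252 in S, 26674 to 35086 in L, and 27801 to 33762 in cG. Their split by direction was not counted under the alternative scalings. A single interval just under the width minimum, chr1:24611386-24616337 over Gm10222 and Gm10925, held 13.2% to 28% of the total counts outside the mitochondrial peak. Its group mean was 26% in Ctrl, lowest in L (13.4%) and highest in ZcG (27.9%). With that interval also left out of the totals, an alternative chosen after seeing the data, the median of all peaks was at most 0.23 (L). The calls became 13 and 8 for P and 24 and 6 for S, with 23599 and 33655 calls over all tested peaks. Offsets that depend on abundance gave 15 and 4 for P, 28 and 5 for L, 23 and 3 for LH, 29 and 4 for PcG, 23 and 2 for PH, and 31 and 1 for PLH. Over all tested peaks these offsets gave 23489 calls in P, 26115 in L and 33736 in PLH. Summed over the 17 comparisons, lower calls at chromosome starts numbered 51 of 119 under TMM, 13 under total counts, 42 without the chromosome 1 interval and 24 with abundance-dependent offsets. At RNA repeats they numbered 17 of 102 under TMM and 12, 13 and 10 in that order.

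Interferon-response loci in broad peaks were higher than Ctrl after L, H, S, cG and Z, while P raised 1 and lowered 1 of them. The list of 67 interferon-response genes touched 4 broad peaks, those at Rsad2, Ifit2, Cxcl10 and Mx1. All 4 were higher in each of L, cG, S, H and Z, with medians of 2.42, 2.33, 2.30, 1.74 and 1.04, where all tested peaks had medians of 0.03, 0.01, 0.00, 0.02 and 0.00. In P the median was 0.20, against -0.04 over all tested peaks. This list and the others below were chosen with earlier results of these data known.

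At the Rsad2 interval, an antiviral gene, Ctrl gave 25.57 and 27.98 CPM. P gave 31.43 and 34.67, Z 50.27 and 56.86, H 79.85 and 93.15, L 120.6 and 129.0, cG 145.5 and 180.1, and S 182.9 and 178.7. All 34 stimulated libraries lay above both Ctrl libraries, and P was the lowest group. The change in S was 2.75 (SE 0.0998, adjusted p = 1e-65). The rise in P was 0.30 (SE 0.105, adjusted p = 0.0262), and it lost its call without Ctrl replicate 1 (0.26, adjusted p = 0.177) or without P replicate 2 (0.23, adjusted p = 0.243).

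The Ifit2 interval, chr19:34572687-34579247, lies at the 3' end of that antiviral gene and ends 3872 bases before Ifit3. Ctrl gave 8.85 and 5.02 CPM and P gave 4.88 and 2.82, while L gave 59.0 and 67.5, S 54.8 and 57.0, and cG 51.4 and 50.7. H gave 27.2 and 35.7, and Z gave 19.2 and 19.7. Both P libraries lay below both Ctrl libraries, the upper by a small margin, and below every other stimulated library. The fall in P was -0.84 (SE 0.204, adjusted p = 0.000828), and it was not called under total-count scaling (-0.51, adjusted p = 0.0544; without the chromosome 1 interval -0.69, adjusted p = 0.00666) or without Ctrl replicate 1 (-0.37, adjusted p = 0.385) or P replicate 2 (-0.49, adjusted p = 0.163). The rise in L was 3.21 (SE 0.147, adjusted p = 1.33e-47).

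At the Cxcl10 interval, whose promoter is printed above, Ctrl gave 18.6 and 19.01 CPM, Z 32.0 and 26.4, H 52.7 and 48.0, L 60.3 and 58.2, S 70.9 and 65.0, and cG 77.6 and 79.0. P gave 25.6 and 20.3, with an adjusted p of 0.0812 against Ctrl under TMM and of 5.942e-05 under total counts (0.00432 without the chromosome 1 interval). The cG libraries were the highest of all 36. The 16 pair libraries ran from 41.5 to 60.2 (median 54.4), below both cG libraries.

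Mx1 and the neighbouring Mx2 are interferon-induced genes of the antiviral GTPase family, and the annotation of this mouse strain lists both as transcribed pseudogenes. The Mx1 interval is chr16:97443785-97449053, and another, chr16:97561207-97568471, starts 306 bases after Mx2 and covers the 3' end of Tmprss2, a membrane serine protease. Both ordered the ligands differently from Rsad2, with L ahead of S and cG. At Mx1, Ctrl gave 10.2 and 10.9 CPM, P 11.2 and 11.7, S 31.5 and 31.4, cG 29.8 and 39.5, H 36.5 and 36.7, L 66.4 and 63.1, and LH 77.3 and 73.3. L, PL and LH lay above all other libraries at this interval. At the Mx2 and Tmprss2 interval, Ctrl gave 7.65 and 8.78, P 8.85 and 12.8, L 40.6 and 36.9, PL 56.6 and 51.2, and LH 56.9 and 61.6. The change in LH was 2.84 at each. The difference between L and S at these intervals was not tested.

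The Tldc2 interval, chr2:157086529-157094690, covers 1 of that gene's starts and lies 2844 bases from Samhd1, an antiviral nucleotide hydrolase. Ctrl gave 14.8 and 15.3 CPM, P 9.84 and 14.0, S 28.3 and 30.1, cG 43.0 and 44.1, and L 64.9 and 62.1. S lay below cG by 0.58 (SE 0.118, adjusted p = 0.00116). PS gave 22.4 and 17.6, the lowest of the 8 pairs.

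**Figure D4:**
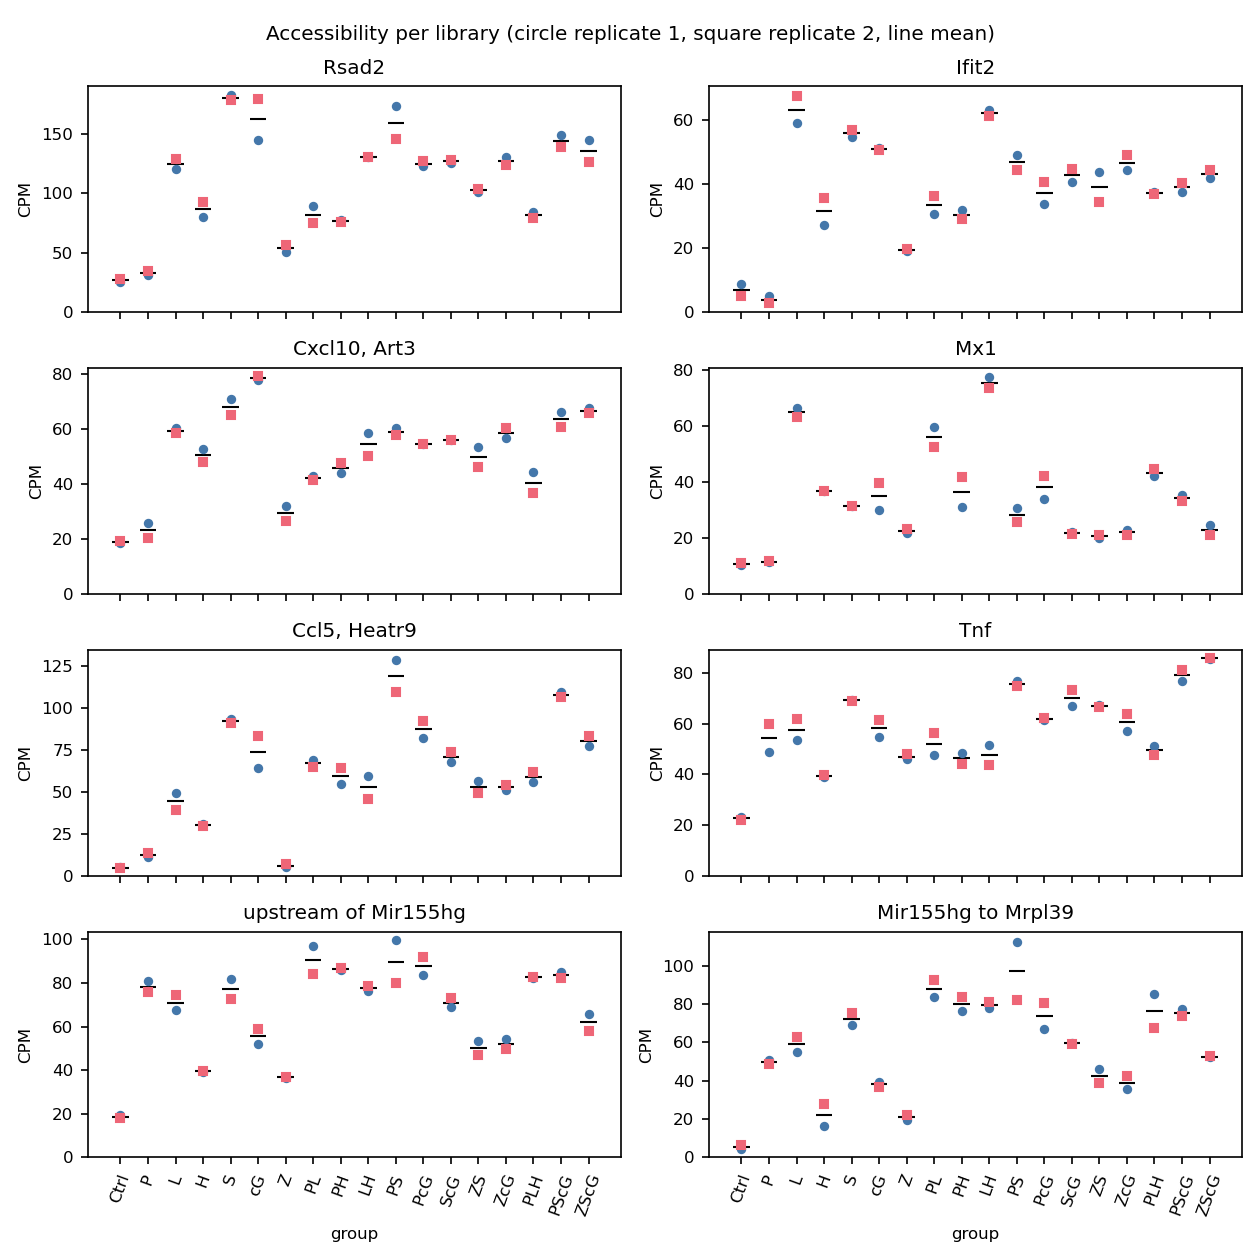
CPM per library at 8 broad peaks in the 18 groups (circle replicate 1, square replicate 2, line group mean). Rsad2, Ifit2, Cxcl10 and Mx1 in P lie close to Ctrl, whereas Tnf and both peaks at Mir155hg in P lie among the other stimulations. Ccl5 in P lies above Ctrl and Z and below every other stimulation. Mx1 is highest in L, PL and LH.

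Inflammatory loci also responded to P. Of 60 listed NF-kappaB targets, 4 lay in broad peaks, at Ccl5, Ccr7, Acod1 and Tnf. In P 3 of the 4 were higher (median 1.00), in S 3 (median 1.35) and in L all 4 (median 1.18). In H all 4 were higher (median 0.78), in cG 3 (median 1.18) and in Z 2 (median 0.44). Over all tested peaks 11.1%, 14.1%, 11.2%, 5.21%, 11.6% and 4.16% were higher in that order. Their medians were -0.04, 0.00, 0.03, 0.02, 0.01 and 0.00. At Tnf, Ctrl gave 23.3 and 22.0 CPM and every stimulated library lay higher, from 39.2 to 86.2 (median 60.7). P gave 48.9 and 59.8, L 53.6 and 61.8, cG 55.0 and 61.6, S 69.4 and 69.2, and ZScG, the highest group, 85.8 and 86.2. The change was 1.27 in P (SE 0.111, adjusted p = 6.24e-21) and 1.62 in S (SE 0.109, adjusted p = 1.28e-30). S exceeded P by 0.35 (SE 0.0980, adjusted p = 0.00356), a call lost without P replicate 1 (0.21, adjusted p = 0.214).

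The interval chr11:83521831-83527834 covers part of Ccl5, a chemokine for T cells and monocytes, and the start of Heatr9, and it changed more than any other member. Ctrl gave 5.14 and 4.44 CPM and Z gave 4.86 and 7.03. P gave 11.4 and 13.5, H 31.0 and 29.5, L 49.6 and 39.0, cG 64.3 and 83.6, S 93.8 and 91.0, and PS 128.8 and 109.8. Z overlapped with Ctrl (0.34, SE 0.208, adjusted p = 0.384), and the other 16 stimulations were called higher. The change in PS was 4.64 (SE 0.143, adjusted p = 2.36e-70).

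Acod1 was already open in Ctrl, at 131.2 and 124.7 CPM, and rose in all 17 stimulations by 0.27 to 1.18. Ccr7, the receptor that guides dendritic cells to lymph nodes, responded unevenly. Its interval, chr11:99141426-99146538, gave 28.7 and 28.5 CPM in Ctrl, 47.0 and 49.5 in H, 38.5 and 55.4 in L, and 27.0 and 26.7 in S. The rises in H (0.75, SE 0.206, adjusted p = 0.0202) and L (0.72, SE 0.204, adjusted p = 0.0128) were not called without either Ctrl library. Ccrl2 rose from 56.8 and 67.8 to between 90.4 and 175 CPM over the 34 stimulated libraries (median 137).

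The pair of intervals around Mir155 opened after every stimulation. The first, chr16:84702454-84709237, overlaps no gene and ends 3786 bases upstream of Mir155hg, the host transcript of miR-155, and 4903 bases before the Mir155 hairpin. The second, chr16:84715616-84722233, starts 371 bases after Mir155hg, 1412 bases past the hairpin, and covers the 3' end of Mrpl39, a mitochondrial ribosomal protein gene read from the opposite strand. At the first, Ctrl gave 19.3 and 18.1 CPM, Z 36.6 and 36.7, H 39.4 and 39.5, cG 52.1 and 59.0, L 67.4 and 74.6, P 80.9 and 75.8, and S 81.7 and 72.5. At the second, Ctrl gave 4.48 and 6.27, Z 19.6 and 22.1, H 16.5 and 27.8, cG 39.2 and 36.9, P 50.9 and 48.7, L 55.2 and 62.9, and S 69.0 and 75.3. P lay near L and S at the first interval and below both at the second.

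The change in P was 2.06 at the first interval (SE 0.110, adjusted p = 5.15e-42) and 3.2 at the second (SE 0.216, adjusted p = 1.76e-12). cG lay below S at both, by 0.47 (SE 0.0961, adjusted p = 0.00115) and 0.92 (SE 0.157, adjusted p = 0.00145). At the second interval PS, at 112.4 and 82.2 CPM, exceeded P by 0.96 (SE 0.153, adjusted p = 2.93e-05). S against P gave -0.02 at the first interval (SE 0.0944, adjusted p = 0.896). At the second, S exceeded P by 0.54 (SE 0.154, adjusted p = 0.0104), a call lost without P replicate 1 (0.57, adjusted p = 0.0604), P replicate 2 (0.51, adjusted p = 0.1045) or S replicate 2 (0.47, adjusted p = 0.0874). Neighbouring regions are not independent replicates of a condition.

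Feedback and stress genes were also found in broad peaks. Of 40 immediate early and feedback genes, 2 lay in broad peaks. Both rose in S, L, H and cG, against 14.1%, 11.2%, 5.21% and 11.6% of all tested peaks. In P and in Z 1 of them rose, against 11.1% and 4.16%. Gadd45b gave 51.0 and 50.4 CPM in Ctrl and 79.0 to 153 in the 34 stimulated libraries. Rgs1, a brake on chemokine receptor signalling, gave 23.7 and 28.0 in Ctrl, 21.4 and 21.0 in P, 28.5 and 23.9 in Z, and 73.7 and 73.6 in S. It rose in the 15 other stimulations and in neither P nor Z. S exceeded P there by 1.79 (SE 0.113, adjusted p = 4.11e-33).

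Tnfsf15 encodes a TNF family cytokine, and 2 broad peaks lay in it: chr4:63733434-63742661 in its body and chr4:63722585-63728894 over its 3' end. The first gave 7.54 and 9.26 CPM in Ctrl, 21.1 and 19.3 in P, 46.1 and 50.01 in S, and 81.8 and 68.6 in PS. The second gave 8.52 and 9.84, 23.0 and 25.4, 38.9 and 50.7, and 73.5 and 59.5 in the same groups. PS was the highest group at both, with changes of 3.15 (SE 0.139) and 2.85 (SE 0.141) from Ctrl. Z was not called at either (0.25, adjusted p = 0.477 and 0.21, adjusted p = 0.563).

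Comparing ligands directly avoids the Ctrl libraries. S exceeded P at 25 of 39 broad peaks, against 11.6% of all tested peaks, and lay below P at 1, Eapp, against 12.9%. cG exceeded P at 25 (11.1% of all) and lay below at 4 (12.7%), and L exceeded P at 19 (5.19%) and lay below at 2 (5.87%). The leading differences of S over P were at Ifit2 (3.86, SE 0.153) and Ccl5 (2.89, SE 0.119). At Mx1, L exceeded P by 2.50 (SE 0.127, adjusted p = 3.22e-44). Adding S to P raised 25 (9.36%) and lowered 2 (8.78%), and adding cG to P raised 24 (7.39%) and lowered 2 (7.35%). Lower calls became 1 in PS against P without P replicate 1 or either PS library, and 2 in S against P without P replicate 2. The members below P were Eapp in all 5 of these comparisons, Pcdh7 in L, cG and PcG, Marcks and the first interval at Mir155 in cG, and the Sfi1 interval chr11:3140434-3145578 in PS. The P libraries are shared by these comparisons. RNA repeats, whose counts are uncertain, held 6 of the higher calls over P in cG and 5 in each of S, L, PS and PcG. With abundance-dependent offsets the higher and lower calls became 23 and 3 for S, 19 and 5 for cG, and 21 and 3 for PS. Those of L and PcG kept their numbers. Calls over all tested peaks, in either direction, went from 29325 to 29476 in S, 28445 to 27652 in cG and 21663 to 21922 in PS.

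S and cG, by contrast, differed at 4 of 39 broad peaks, against 0.949% of all tested peaks in either direction. S was higher at the pair around Mir155 and lower at Tldc2 and at Rn18s-rs5 (-0.73, SE 0.159, adjusted p = 0.0314). At Rsad2 the difference of S from cG was 0.15 (SE 0.0861, adjusted p = 0.553) and at Ifit2 0.13 (SE 0.113, adjusted p = 0.75). With abundance-dependent offsets 7 differed, 6 higher in S, and calls over all tested peaks went from 1134 to 1023. Without S replicate 1 a single call was left, and without cG replicate 1 there were 2.

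Some members changed little or fell. Marcks, which encodes a membrane-bound protein kinase C substrate, gave 170.1 and 145.1 CPM in Ctrl and between 95.7 and 140 over the 34 stimulated libraries, all below both Ctrl libraries. It was called lower in 16 of 17 stimulations, with a change of -0.67 in cG (SE 0.0858, adjusted p = 4.15e-11). Under total counts it was not called in P, L, H or S (adjusted p = 0.261 to 0.987), and with the chromosome 1 interval left out of the totals it was called in these 4 (adjusted p = 0.000894 to 0.0299). Midn, which encodes a nuclear protein that promotes protein degradation, had group means from 59.9 to 96.1 CPM, a ratio of 1.60. Eapp was highest in P, at 135.4 and 133.8 CPM against 89.0 and 96.6 in Ctrl (0.54, SE 0.0899, adjusted p = 5.04e-07). Pcdh7, a protocadherin gene, gave 74.3 and 67.4 in Ctrl and fell to 35.96 and 43.5 in L (-0.83, SE 0.103, adjusted p = 1.1e-11).

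The interval over the starts of Brd2, a bromodomain reader of acetylated histones, and H2-DMa, an MHC class II chaperone, rose from 79.3 and 82.7 to 141.9 and 145.9 in ZScG. No broad peak overlapped any of 40 myeloid identity genes, 9 histone genes or 4 Hox genes on the lists.

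At genes whose start lay outside the broad peak, the peak at the start could be compared with it. At Rsad2 the start carried a peak of 1313 bases with 13.5 CPM per kb in Ctrl, and the broad peak had 1.82 CPM per kb. In S the start peak changed by 0.87 (adjusted p = 2.08e-08) and the broad peak by 2.75. At Ifit2 the start peak changed by -0.05 in S (adjusted p = 0.899), against 3.03 in the broad peak. At Mrpl39 the start peak fell by 0.61 in S (adjusted p = 7.63e-06), while the interval at its 3' end, beside Mir155hg, rose by 3.73. At Tnfsf15 the start peak rose by 1.39 and the broad peaks by 2.51 and 2.28. At Acod1 the start peak changed by 1.31 and the broad peak by 1.08 in S, and by 0.95 and 1.0 in L. The difference between the 2 peaks of a gene was not tested.

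A set of 3 members far from a start of a coding gene was highest in combinations that include Z. The interval chr13:119595585-119603643, inside Tmem267, gave 195.6 and 246.9 CPM in Ctrl, 133.2 and 149.7 in P, 556.2 and 528.4 in Z, 941.2 and 1016 in ZS, and 1071 and 1143 in ZScG. The change in ZScG was 2.32 (SE 0.174, adjusted p = 3.13e-09). Its median was 717.1 CPM over the 10 libraries of Ctrl, Z, ScG, ZcG and ZScG, groups with a high mean mitochondrial share, and 449.8 over the 26 others. The interval chr18:9502982-9509665, 52828 bases from Ccny and overlapping no gene, gave 29.8 and 33.8 in Ctrl, 33.1 and 32.1 in P, 82.1 and 73.4 in cG, and 84.1 and 94.8 in ZcG. Gm51701, on chromosome 9 and 32671 bases from Ccr1, rose from 72.1 and 79.3 to 188.8 and 186.7 in ZScG (1.31, SE 0.0870). Its rise in P (0.26, adjusted p = 0.0208) was not called without Ctrl replicate 1 or P replicate 2.

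The loci at RNA repeats and chromosome starts included some with higher levels in groups of high mean mitochondrial share. Rn18s-rs5, a fragment of ribosomal DNA, gave 2060 and 2030 CPM in Ctrl, 792.2 and 650.3 in P, 731.6 and 666.7 in S, 581.3 and 572.8 in PS, and 2739 and 2594 in ZScG. Over the 10 libraries of the 5 groups with a mean mitochondrial share of at least 58%, a boundary drawn after the data were seen, its level ran from 1158 to 2739 (median 2045), and over the 26 others from 572.8 to 2063 (median 784.9). The change was -1.55 in S (SE 0.161, adjusted p = 4.11e-07) and -1.50 in P (SE 0.161), and -0.17 in Z (adjusted p = 0.617). The shares of single libraries overlapped between these sets. ZS replicate 1, among the 26 others, had 58.11%, above ScG replicate 1 (57.25%) and ZScG replicate 1 (57.88%) among the 10. Members elsewhere also differed between these sets, in either direction. Their medians in the 10 and the 26 libraries were 39.01 and 71.47 CPM at the second interval at Mir155. They were 21.43 and 35.86 at Mx1, 185.0 and 253.0 at Acod1, 25.06 and 36.52 at Ccr7, and 75.33 and 54.13 near Ccny. Rsad2 had 124.9 and 121.7. The part of the mitochondrial share in all these levels was not tested.

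The widest member, chr9:2999874-3038397, held a mean of 14150 CPM, or 367.4 CPM per kb, and was 296834 bases from the nearest coding gene, Alkbh8. Its medians were 16420 CPM in the 10 libraries of the 5 groups with a high mean mitochondrial share and 12610 in the 26 others. It gave 12030 and 12920 in Ctrl, 8016 and 6589 in PS, and 26890 and 25830 in ZScG (1.08, SE 0.187, adjusted p = 0.00017). The fall in S (-0.52, adjusted p = 0.0431) became 0.26 with abundance-dependent offsets. The 5 members of the chromosome 6 cluster moved together, highest in ZScG and ZS: the interval at Gm40365 gave 43.9 and 52.1 CPM in Ctrl, 33.9 and 38.1 in P, and 99.2 and 107.0 in ZScG. The smallest spread of group means among all members, a ratio of 1.53, was that of Pisd-ps2.

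**Figure D5:**
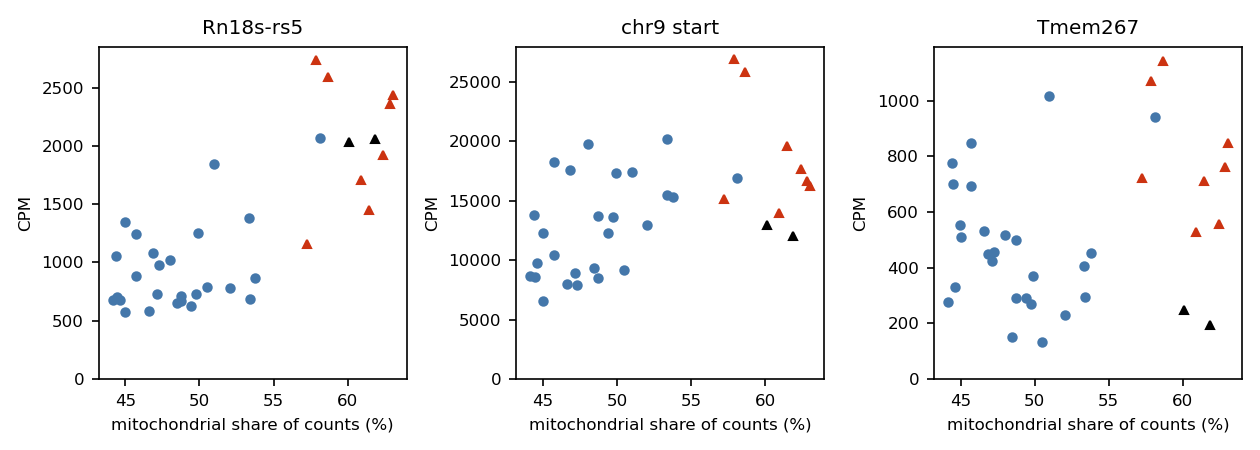
CPM per library against the mitochondrial share of counts (%) at Rn18s-rs5, at the 38524-base interval at the start of chromosome 9 and at the Tmem267 interval (red triangles for the 5 groups with a mean share of at least 58%, those of Ctrl in black, and blue circles for the others). Rn18s-rs5 runs from 1158 to 2739 CPM in the triangles and from 572.8 to 2063 CPM in the circles.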

How the data were processed

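ATAC-seq was run on 50000 nuclei per library with 12 amplification cycles and paired reads of 42 cycles, per the labels' protocols. The submitters' processing notes name mm10, Bowtie2 2.2.9, MACS2 1.4, bedtools and featureCounts, without giving their roles. Whether reads were shifted for transposase binding, deduplicated, or peaks called on pooled libraries is not given in the sources used here, so the deposited peak widths could move with any of these. The deposited table holds the authors' raw counts per peak and library, with all columns matched to samples by title.

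From these counts, the mitochondrial peak and 286 low peaks (filterByExpr, minimum count 10) were left out, and 119464 peaks were fitted in edgeR 4.0.16 under R 4.3.3 (TMM, quasi-likelihood, robust, 1 coefficient per group), with 23 comparisons and Benjamini-Hochberg adjustment over all tested peaks. Counts carry no molecular identifiers, so counting precision covers counting error only.

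Members, gene lists and comparisons were chosen with earlier results of these data known. A naming rule (the widest, the densest, the most and least changed members) picked 25 of 39 peaks, and the others were named after their values were seen, except 1 that is counted but not reported singly here. Genes, promoters and microRNAs were matched by position or symbol to RefSeq GRCm38.p6, where 17492 of 21900 coding genes had a strand. Same-numbered replicates did not deviate together across 153 pairs of groups (correlations -0.04 to 0.03), so no pairing was used. Alternatives were total-count scaling, the same without the chromosome 1 interval (added after seeing the data), abundance-dependent offsets, no filter, DESeq2 1.42.0, the mitochondrial peak kept, a replicate block and each library left out.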

Additional observations from a re-analysis of the deposited data

Results flagged for a closer look

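Broad intervals outside chromosomes 1 to 19, which entered no comparison above, exceeded the Ctrl level in at least 1 stimulation. On X, the interval of 24836 bases over Mid1 rose by 0.72 in ZS (log2, adjusted p = 5.77e-23) and was higher in 15 stimulations. A second one near Mid1 on X, of 5005 bases, rose by 0.52 in ZScG (adjusted p = 2e-05). The interval over Erdr1, of 7576 bases, rose by 1.57 in ZScG (adjusted p = 1.32e-06). An interval of 30863 bases assigned to Y, over Mid1-ps1, rose by 0.75 in ZS (adjusted p = 6.25e-24). The mice were female, so its counts cannot be read as open chromatin on Y. Its Ctrl level was 848 CPM, against 902 at the interval of 24836 bases over Mid1 on X. Whether the 2 intervals share reads was not tested. On an unplaced scaffold, an interval of 6596 bases rose by 0.89 in ZScG (adjusted p = 0.00123). On another unplaced scaffold, intervals of 11945 and 102351 bases rose by 0.32 (adjusted p = 0.000398) and 0.90 (adjusted p = 0.000238) in ZScG. Each contrast named is that with the largest rise of the 17.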

How the results depend on the processing

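In 22 of the 23 comparisons the number of broad peaks called stayed within 1.5 times the reported count under every alternative run, among them DESeq2 and no filter. The exception was S against cG, with 4 reported, 7 under offsets that depend on abundance, 6 under total counts without the chromosome 1 interval (4 higher in S, 2 lower), and 1 to 5 when each library was left out in turn. A width minimum of 4000 bases gave 104 autosomal peaks and one of 10000 bases gave 4, against 39. Of 15 peaks that cover a start, 12 held it at least 500 bases inside. With the replicate number as a block, P against Ctrl kept 12 higher and 14 lower calls, and S against Ctrl 21 and 9; no pairing was found. For single peaks, 5 called changes took the other sign, which was not a call in the opposite direction for Sfi1 in L (edgeR adjusted p = 0.84). Under total counts, Sfi1 (chr11:3156321-3163465) in L became 0.04, Eapp in L 0.04 and Pisd-ps2 in H 0.03. Under abundance offsets, the chromosome 9 interval in S became 0.26 and Pisd-ps2 in H 0.04. These 5 were sorted by sign alone. A further 168 lost and 84 gained a call of 3003 combinations of peak, comparison and setting; the cause was not tested. With 2 libraries per group, leaving 1 out assumes that the other varies like the rest.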
